A study of Mus musculus with 9 samples.

Results

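The 10 genes described here, Lyz2, C1qa, C1qb, C1qc, Csf1r, Itgax, Flt3, Clec9a, Xcr1 and Tyrobp, are known as transcripts of dendritic cells and macrophages, and were followed through 9 RNA-seq libraries of medullary thymic epithelial cells (mTECs). They were chosen by name from 23003 gene symbols, with earlier results of these data known. Each is given by 1 RefSeq entry, the one with the highest counts in the Aire pair. Mice were B6 animals, and thymi were pooled before cells negative for CD45 and Ly51 were sorted by high (mTEChi) or low (mTEClo) surface MHC class II. One pair held mTEChi of wild-type (WT) mice and mTEChi labelled Aire-KO, from Aire-deficient mice on the B6 background. A second pair (Exp2) held WT mTEChi and mTEClo taken from the same mice. A further 5 libraries were WT mTEChi given 1 uM actinomycin D, which blocks transcription, in MEM medium for 0, 1.5, 3, 6 or 12 h. Every group had 1 library, so that no difference within a pair could be set against replicate error, and intervals on folds and levels are exact 95% intervals of counting error alone.

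Macrophages and dendritic cells of the thymus take up dying thymocytes and present antigen, and their transcripts include parts of the complement system, receptors for growth factors and chemokines, and adaptors of immune signalling. mTEChi are epithelial cells in which the nuclear protein Aire is known to promote transcription of a very large number of genes otherwise restricted to other tissues, blood cells included. Transcripts of this kind can therefore come from the epithelial cells themselves or from cells of another type in the sort, and in bulk RNA fewer cells of a type and less RNA per cell cannot be told apart.

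Total reads over RefSeq entries ran from 74161592 to 195444567 in the untreated libraries and from 1746825 to 21124165 in the treated ones. A count of 3 reads thus corresponded to 0.0153 to 0.0405 CPM (reads per 1000000 reads) in the untreated libraries, and to 1.72 CPM at 12 h. The epithelial gene Epcam stood between 311 and 544 CPM in the untreated libraries. Ptprc, which encodes CD45, the antigen used for depletion and gating, was detected in all of them, at 6.72 CPM in WT, 1.87 in the Aire-KO-labelled library, 6.71 in mTEChi (Exp2), 13.3 in mTEClo and 14.2 at 0 h. Aire transcript (entry NM_009646) was at 259 CPM in WT and 661 CPM in the Aire-KO-labelled library. Reads were summed over the whole gene, in which a deletion of some exons is not visible, so this value does not check the label. The assignment of both columns of the pair rests on the direction in which the study's code reads their ratio.

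Per kilobase of exon, Lyz2 was far above the other members in every library. In CPM per kilobase of exon (RPKM) over the 3 untreated WT mTEChi libraries, Lyz2 (lysozyme, an antibacterial enzyme of phagocytes) averaged 381 ± 197 RPKM (SD, n = 3). The complement gene C1qb followed at 21.5 ± 4.24 RPKM, then C1qa at 10.5 ± 2.18 and C1qc at 9.78 ± 2.15. Tyrobp (an adaptor of activating immune receptors) stood at 4.74 ± 3.20 RPKM and Csf1r (the receptor for colony stimulating factor 1 and interleukin 34) at 4.68 ± 1.17. Flt3, the cytokine receptor that dendritic cells need, was at 1.98 ± 0.550 RPKM, Itgax (the integrin CD11c) at 0.626 ± 0.116 and the chemokine receptor Xcr1 at 0.624 ± 0.220. Clec9a, a receptor for dead cells on type 1 dendritic cells (cDC1), came last at 0.0961 ± 0.0339 RPKM. C1qa and C1qc, Tyrobp and Csf1r, and Itgax and Xcr1 were neighbours in this order whose means lay closer than their spread. Without Lyz2, the other members summed to 85.9 CPM in WT, 74.9 in mTEChi (Exp2) and 73.4 at 0 h, against 15.8 in the Aire-KO-labelled library and 18.3 in mTEClo. Both of the latter also held more of the ribosomal precursor entry NR_046233, at 3.77% and 5.35% of reads, than WT (0.763%) and mTEChi of Exp2 (0.666%). Entries without a read made up 5.63% in WT and 10.03% in the Aire-KO-labelled library, and 0.787% and 0.764% in mTEChi and mTEClo of Exp2. The part of these features in the members' levels was not tested. Lyz2 supplied between 65.0% (3 h) and 95.5% (Aire-KO-labelled library) of the members' summed CPM.

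**Figure D1:**
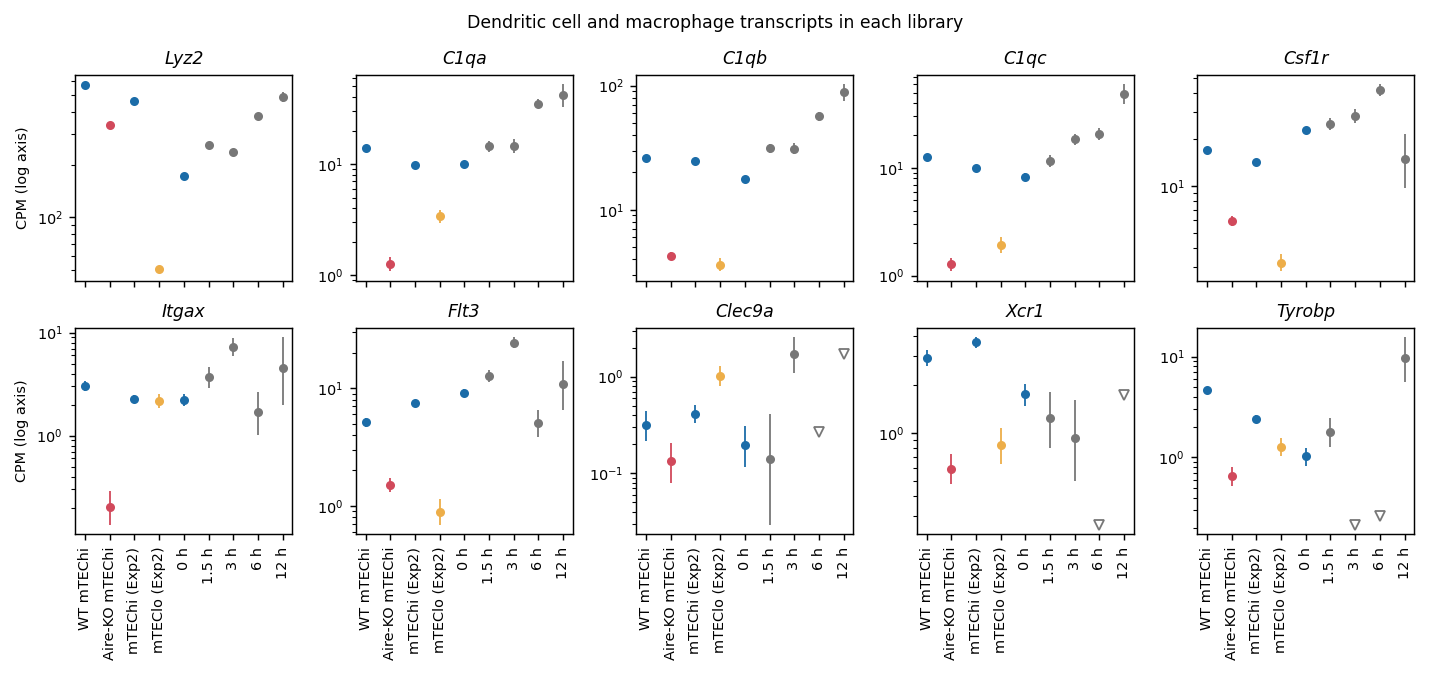
CPM (log axis) of the 10 members in each of the 9 libraries, with 95% counting intervals. Blue points are untreated WT mTEChi, red is the Aire-KO-labelled library, yellow is mTEClo, grey points are actinomycin D libraries, and open triangles mark 0 reads, drawn at the level of 3 reads. The red point lies below all blue points for each member except Lyz2.

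The Aire pair addressed which transcripts differ when Aire is missing. All 10 members were higher in WT than in the Aire-KO-labelled library, with folds from 1.45 (Lyz2) to 12.9 (Itgax) and a median of 4.72, beside a median of 1.02 over all 26761 entries that reached 10 normalised counts over both libraries. Of these, 6 were at least 3-fold higher, the limit used in the study, where 21.1% of all entries passed it, and 0 were 3-fold lower, where 2.03% of all entries were. All 10 members passed the minimum of counts.

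The 3 chains of C1q, the complement protein that binds immune complexes and dying cells, are made by neighbouring genes on the minus strand of chromosome 4 (mm9 coordinates of C1qb chr4:136436044-136442102, C1qc chr4:136445719-136448980, C1qa chr4:136451832-136454718). C1qa had 1465 reads in WT and 180 in the Aire-KO-labelled library, which was 9.51-fold higher in WT after normalisation (95% interval 8.15 to 11.2). C1qc had 1330 and 182 reads, or 8.54-fold (7.31 to 10.03). C1qb had 2711 and 605 reads, or 5.24-fold (4.80 to 5.73). The lower fold of C1qb thus lay outside the counting intervals of the other chains. The makeup of the C1q reads differed accordingly. C1qb took 49.2% of them in WT (exact binomial 95% interval 47.9 to 50.6) and 62.6% (59.4 to 65.6) in the Aire-KO-labelled library, where C1qa took 18.6% (16.2 to 21.2) against 26.6% (25.4 to 27.8). Among the untreated WT mTEChi libraries the share of C1qb was also 55.6% (54.5 to 56.6) in mTEChi (Exp2) and 49.1% (47.3 to 50.8) at 0 h, a gap wider than counting error, so that libraries of the same kind differed in this share. No 50-base stretch of the annotated coding transcript of 1 chain occurred in another, 50 bases being the length to which reads were trimmed.

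**Figure D2:**
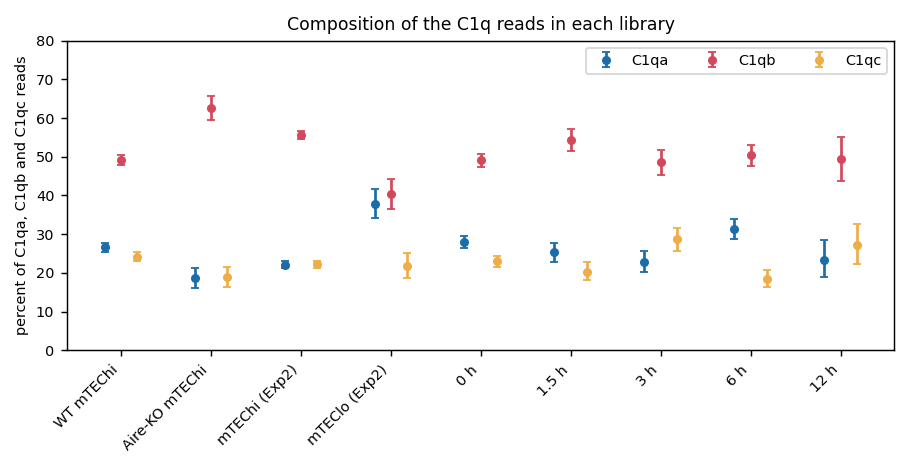
Share of C1qa, C1qb and C1qc (percent of their summed reads) in each library, with exact binomial 95% intervals for counting error. C1qb took the highest share in all 9 libraries, at 62.6% in the Aire-KO-labelled library and 40.3% in mTEClo, where its interval overlaps that of C1qa.

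Among receptors and adaptors of phagocytes, Tyrobp had 482 reads in WT and 93 in the Aire-KO-labelled library (6.06-fold, 4.84 to 7.65), and Itgax 319 and 29 (12.9-fold, 8.78 to 19.5). Csf1r had 1780 and 852 reads, a smaller difference of 2.44-fold (2.25 to 2.65). Of the dendritic cell receptors, Xcr1 had 306 and 85 reads (4.21-fold, 3.30 to 5.42), Flt3 had 535 and 215 (2.91-fold, 2.48 to 3.42) and Clec9a only 33 and 19 (2.03-fold, 1.12 to 3.78). The counting intervals of Flt3 and Clec9a included the 3-fold limit. With totals scaled to be equal, which raised all folds of this pair by 0.23 on the log2 scale, Flt3 passed it and 7 members did.

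Lyz2 went its own way in size. It had 59870 reads in WT and 48110 in the Aire-KO-labelled library, or 1.45-fold (1.44 to 1.47), so that the ratio of Lyz2 to C1q reads was 10.9 in WT (10.6 to 11.2) and 49.8 in the Aire-KO-labelled library (46.7 to 53.1). Its neighbour Lyz1, the lysozyme gene of intestinal Paneth cells, had 647 CPM in WT and 101 in the Aire-KO-labelled library, or 5.44-fold (5.35 to 5.54). Lyz2 and Lyz1 lie side by side on the minus strand of chromosome 10 (mm9, chr10:116714390-116719377 and chr10:116724852-116729924) and are 95.1% identical over their 447 coding bases. The 30 coding bases with the most differences are shown with the 7 differing bases in capitals, because reads of these genes are told apart by such positions alone (transcripts of the mm9 annotation, coding bases 103 to 132).
Lyz1: atggAtggctacCGtggTgtcaAGctggcT
Lyz2: atggCtggctacTAtggAgtcaGCctggcC
Of all 50-base windows of the Lyz2 transcript, 15.4% (195 of 1264) also occurred in that of Lyz1, and reads from such windows match both genes, so that their counts are uncertain to that extent. In the untreated WT mTEChi libraries Lyz2 ranged from 172 CPM (0 h) to 574 CPM (WT), and the Aire-KO-labelled library, at 336 CPM, lay within that range. With the 0 h library in place of WT, the direction turned, to a log2 fold of -0.97 in CPM.

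**Figure D3:**
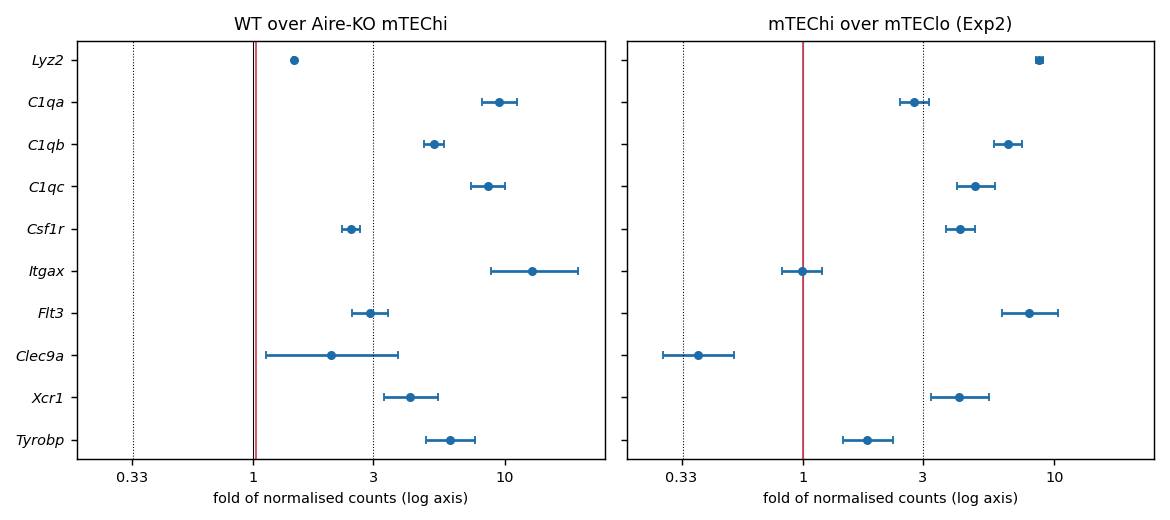
Fold of normalised counts (log axis) for each member in the Aire pair (left) and in the mTEChi and mTEClo pair (right), with exact 95% counting intervals. Dotted lines mark 3-fold in either direction and the red line the median of all entries, which is 1.02 on the left and 1.01 on the right. All 10 members lie above 1 on the left, and Itgax and Clec9a lie below 1 on the right.

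To set the Aire-KO-labelled library against a spread between libraries, it was compared with the 3 untreated WT mTEChi libraries (WT, mTEChi of Exp2 and 0 h), which came from separate experiments. In CPM, 9 of 10 members were below all of these libraries, as were 46.4% of all entries with a mean of at least 0.2 CPM. By edgeR's quasi-likelihood test over 23916 entries, with the lone library assumed to vary like the others, 3 of 10 members were called higher in WT (Benjamini-Hochberg adjusted p under 0.05), beside 8.64% of all entries called higher and 0.0878% called lower. Itgax differed by 3.36 ± 0.714 on the log2 scale (SE, adjusted p = 0.0305), C1qa by 2.90 ± 0.633 (adjusted p = 0.0335) and C1qc by 2.75 ± 0.644 (adjusted p = 0.0415). C1qb, at 2.17 ± 0.601, missed the threshold (edgeR adjusted p = 0.0710), as did Flt3 at 1.97 ± 0.592 (adjusted p = 0.0903) and Xcr1 at 1.97 ± 0.727 (adjusted p = 0.163). For Csf1r, Tyrobp and Clec9a the differences were 1.31 ± 0.532, 1.81 ± 0.967 and 0.96 ± 0.940, and for Lyz2 it was 0.02 ± 0.708, none of which passed. The median difference of the 10 members was 1.97, beside 0.13 over all entries. The calls rested on single libraries. Without the 0 h library 5 members were called (C1qa, C1qb, C1qc, Itgax and Xcr1), beside 2903 of 23844 entries called higher. Without WT, Itgax alone was called, beside 2395 of 23966 entries called higher. Without mTEChi of Exp2 it was again Itgax alone, beside 1762 of 23586 entries. DESeq2 called 5 members, beside 3747 of 25270 entries called higher.

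Promoters of 7 members are held by RefSeq's table (build GRCm38.p6, from 250 bases before to 50 after the gene start). The 6-letter word GGAAGT, a sequence that ETS family factors such as PU.1 are known to bind, was searched on both strands (as ACTTCC on the other strand), and was picked after these promoters had been read, so its count is a description. It occurred in 6 of the 7 (C1qb, C1qc, Flt3, Itgax, Lyz2 and Xcr1) and not in Clec9a, while 26.5% of all 27025 genes in the table had it in a promoter. The purine box GAGGAA, searched on both strands (TTCCTC on the other), was found in 2 of the 7 (C1qb and C1qc), and in 31.3% of all genes. It shares letters with the word in the stretch of C1qc shown here but not in that of C1qb. A 24-base stretch around the word is shown for each gene in the sense of that gene (of 2 in Itgax, the one nearer to the gene start), for members that were higher in WT by different amounts, with the word in capitals.
C1qb, chr4:136886239-136886262, minus strand: ggacctgaaACTTCCtgagggcag
C1qc, chr4:136893095-136893118, minus strand: acggcagacACTTCCtcattttgg
Itgax, chr7:128129500-128129523, plus strand: acgctgacaACTTCCctcctggtc
Flt3, chr5:147400550-147400573, minus strand: gtccaggcaACTTCCccagccgaa
Xcr1, chr9:123862070-123862093, minus strand: taatgaaggGGAAGTttgaggcca
Lyz2, chr10:117282358-117282381, minus strand: tcggtaggaACTTCCtgttttgca
In the Aire pair, the folds of the members with the word ran from 1.45 (Lyz2) to 12.9 (Itgax). Spi1, the gene of PU.1, a factor of macrophages and B cells, had 7.69 CPM in WT and 0.510 in the Aire-KO-labelled library. This was 12.8-fold higher in WT (10.1 to 16.6). The part of PU.1 in the members' levels was not tested.

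The pair of mTEChi and mTEClo (Exp2) addressed how the members differ with the maturity of the cells. At least 3-fold higher in mTEChi were 6 members, where 11.8% of 29212 entries passed that limit, and 0 were 3-fold higher in mTEClo, where 12.8% of entries were. The median fold of the members was 4.20, beside 1.01 over all entries. The members at least 3-fold higher differed in part from those of the Aire pair. Lyz2, close to level there, had the largest fold here, and Itgax, with the largest fold there, was level here.

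Lyz2 had 90619 reads in mTEChi and 3758 in mTEClo, or 8.71-fold (8.43 to 9.0). C1qb had 4833 and 267 reads (6.54-fold, 5.78 to 7.42), C1qc 1935 and 144 (4.85-fold, 4.10 to 5.79), and C1qa 1926 and 251 (2.77-fold, 2.43 to 3.17). The order of the C1q folds was thus the reverse of that in the Aire pair, and C1qa took 37.9% of C1q reads in mTEClo (34.2 to 41.7) against 22.2% in mTEChi (21.3 to 23.0). Csf1r had 2785 and 238 reads (4.23-fold, 3.70 to 4.84) and Tyrobp 471 and 94 (1.81-fold, 1.45 to 2.28). With the 0 h library in place of mTEChi, Tyrobp turned to a log2 fold of -0.30 in CPM.

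Of the dendritic cell receptors, Flt3 had 1450 reads in mTEChi and 66 in mTEClo (7.93-fold, 6.20 to 10.3), and Xcr1 718 and 62 (4.18-fold, 3.22 to 5.51). Itgax had 444 and 162 reads, a ratio of 0.990 (0.825 to 1.19) that included 1, and its side of 1 changed with the scaling. Clec9a went the other way, with 81 reads in mTEChi and 76 in mTEClo, and was 2.60-fold higher in mTEClo (1.88 to 3.6). Clec9a and Xcr1 are both known as markers of cDC1, and here lay on opposite sides.

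Against the same 3 untreated WT mTEChi libraries, which this comparison shares with the Aire one, mTEClo was below all of them in CPM for 8 of 10 members, as for 39.0% of entries. It was above all of them for Clec9a, at 1.02 CPM against 0.196 to 0.414, and within their range for Tyrobp. By edgeR over 24687 entries, 0 of 10 members were called, while 1.92% of entries were called higher and 1.45% lower in WT mTEChi. Of the members, 7 had an unadjusted p under 0.05, as did 4947 of the 24687 entries. The differences came closest to the threshold for Flt3, at 2.86 ± 0.638 on the log2 scale (adjusted p = 0.0595), C1qb at 2.53 ± 0.615 (adjusted p = 0.0717) and Csf1r at 2.34 ± 0.572 (adjusted p = 0.0734), and Lyz2 stood at 2.89 ± 0.861 (adjusted p = 0.114). Without the 0 h library 5 members were called (Lyz2, C1qb, C1qc, Csf1r and Flt3), beside 1834 of 24590 entries called higher and 1211 lower. DESeq2 called the same 5 on all libraries, beside 1826 of 25333 entries higher and 967 lower.

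Genes of related lists, also chosen with earlier results of these data known, were described in both pairs in the same way. These lists hold 87 genes of leukocytes in general, macrophages, cDC1, type 2 dendritic cells and monocytes (cDC2), plasmacytoid dendritic cells (pDC), mature dendritic cells and transcription factors of myeloid cells. Several of the mature dendritic cell genes are also made by mTEChi. Of 85 with enough counts in the Aire pair, 33 were at least 3-fold higher in WT, or 38.8% beside 21.1% of all entries, and 0 were 3-fold lower beside 2.03%, with a median of 2.14. The lists differed among themselves. Macrophage genes had 11 of 19 at least 3-fold higher (median 6.76), among them Adgre1 (the F4/80 antigen) at 9.45 CPM in WT and 0.552 in the Aire-KO-labelled library, or 14.6-fold (11.6 to 18.6). Itgam (CD11b) was at 15.1-fold (13.1 to 17.4) and Cd14, a receptor for bacterial lipopolysaccharide, at 10.7-fold (9.96 to 11.5), while Mrc1, the mannose receptor and the most abundant of the list, was at 2.03-fold (1.92 to 2.15). Of the cDC2 and monocyte genes 11 of 12 were at least 3-fold higher (median 6.12), Ly6c2 at 31.0-fold (25.4 to 38.3), while Irf4 stood at 0.555.

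The remaining lists had lower medians. Of the 12 general leukocyte genes 4 were at least 3-fold higher in WT (median 0.995), Ptprc and Itgb2, the partner chain of CD11c, among them at 3.06-fold (2.65 to 3.53) and 3.98-fold (3.44 to 4.62). Laptm5, a lysosomal protein of blood cells, had 633 CPM in WT and 965 in the Aire-KO-labelled library, a fold of 0.559, and Lcp1 was at 0.611. Of the cDC1 genes 1 of 11 was 3-fold higher (median 1.71), with the transcription factor Irf8 at 0.443 and the regulator of cross-presentation Wdfy4 at 2.93. Mature dendritic cell genes had 2 of 11 (median 1.03), myeloid factors 1 of 11 (median 2.00, Spi1 being the one) and pDC genes 3 of 9 (median 2.14), with Ly6d at 10.8-fold, Klk1 at 9.42-fold and Bst2 at 2.14-fold, but Spib, the most abundant, at 0.689.

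**Figure D4:**
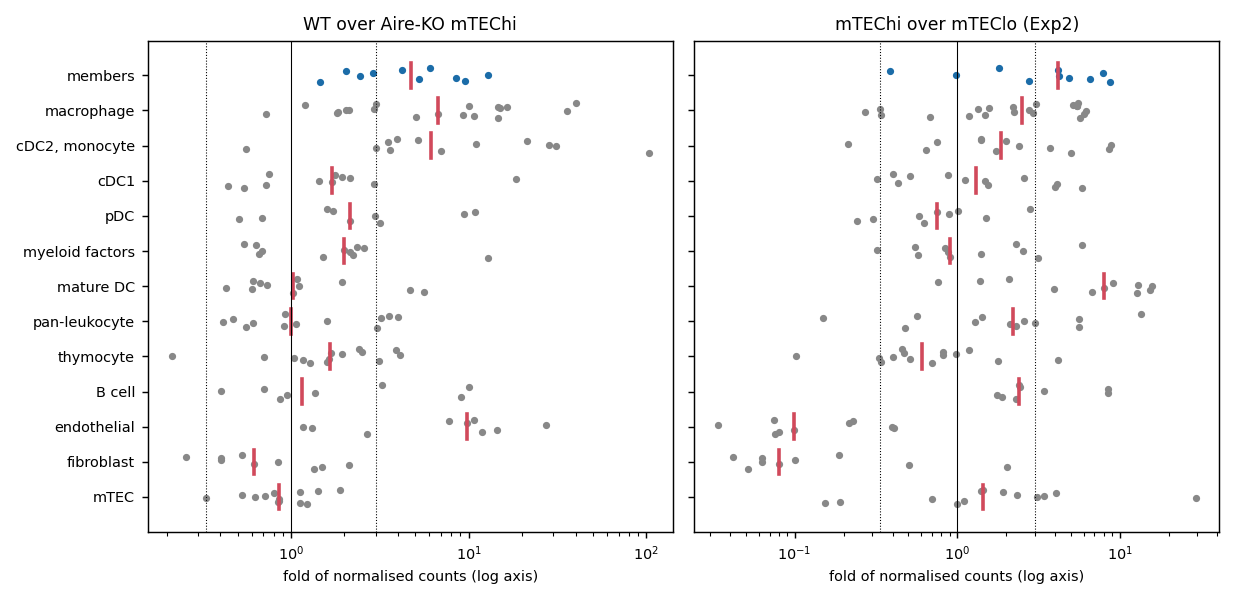
Fold of normalised counts (log axis) of each gene of the lists, with the members in blue, other lists in grey and red bars at list medians, for the Aire pair (left) and mTEChi against mTEClo (right). Dotted lines mark 3-fold. Macrophage, cDC2 and endothelial medians lie above 6 on the left, the endothelial one at 9.81. The mature dendritic cell median is 1.03 on the left and 8.07 on the right.

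Between mTEChi and mTEClo, 29 of the 87 genes were at least 3-fold higher in mTEChi, or 33.3% beside 11.8% of all entries, and 7 were 3-fold lower, where 12.8% of all entries were, with a median of 1.74. Mature dendritic cell genes, several of them also made by mTEChi, led here with 8 of 11 (median 8.07). Cd80 was at 13.0-fold (12.1 to 14.1), Cd40 at 9.04-fold and Fscn1 at 8.07-fold. Macrophage genes had 8 of 20 (median 2.51) and 1 was 3-fold lower. Of the most abundant ones, Mrc1 was at 6.22-fold and Adgre1 at 5.72-fold, but Itgam at 1.58-fold and Cd14 at 1.18-fold. For pDC genes 0 of 9 were 3-fold higher (median 0.751). Ptprc was 0.481 of its mTEClo level, on the other side from most members.

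Genes of other thymic cell types were counted in the same way. Thymocytes and B cells carry CD45, which the bead depletion and the gate select against, while endothelial cells and fibroblasts do not. In the Aire pair, beside 21.1% of all entries, 3 of 14 thymocyte genes, 3 of 8 B cell genes, 6 of 9 endothelial genes and 0 of 9 fibroblast genes were at least 3-fold higher in WT. At least 3-fold lower in WT were 1 thymocyte and 1 fibroblast gene, beside 2.03% of all entries. Their summed levels in WT and in the Aire-KO-labelled library were 55.5 and 32.1 CPM for thymocyte genes, 107 and 58.7 for B cell genes, 81.3 and 27.0 for endothelial genes and 139 and 204 for fibroblast genes. In mTEClo, endothelial genes summed to 348 CPM against 59.8 in mTEChi, and fibroblast genes to 1016 against 138. Macrophage genes summed to 215 CPM in WT, 61.1 in the Aire-KO-labelled library, 173 in mTEChi (Exp2), 80.5 in mTEClo and 220 at 0 h, and general leukocyte genes to 2089, 2684, 2040, 612 and 557, the last without Lcp1. Of the general leukocyte sum in WT, 651 CPM came from Cd52, 633 from Laptm5 and 501 from Lcp1, against 6.72 from Ptprc. No general leukocyte gene was at 0 in an untreated library, where 0.764% to 10.03% of shared entries were. The part of other cell types in the levels of the members was not tested.

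The ligands and partners of the members were of several kinds. Of 16 with an entry, 8 were at least 3-fold higher in WT than in the Aire-KO-labelled library (21.1% of all entries), and 0 lower (2.03%), while 2 were 3-fold higher in mTEChi than in mTEClo (11.8%) and 5 lower (12.8%). Xcl1, the ligand of Xcr1, had 744 reads in WT and 5 in the Aire-KO-labelled library (174-fold, 74.2 to 537), and 1818 in mTEChi and 9 in mTEClo (73.0-fold, 38.3 to 160). Xcl1 thus had larger folds than its receptor in both pairs. The ligands of Csf1r differed from each other in the Aire pair. Csf1 was at 1.06-fold (1.02 to 1.11) in the Aire pair and 0.721 of mTEClo in mTEChi, and Il34 at 2.31-fold (2.03 to 2.63) and 0.247. Flt3l, the ligand of Flt3, stood at 1.10-fold (1.03 to 1.17) and 1.37-fold (1.27 to 1.49).

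Trem2, a receptor that signals through Tyrobp, had 6.10 CPM in WT and 0.552 in the Aire-KO-labelled library (9.41-fold, 7.44 to 12.0), but was 0.450 of mTEClo in mTEChi. The protease C1s1, which acts with C1q in the classical complement pathway, was unlike the C1q chains in the second pair, with 13.9 CPM in mTEChi and 247 in mTEClo. Its inhibitor Serping1 had 20.1 and 93.5 CPM there. Calr, a binding partner of C1q, had a fold of 0.687 in the Aire pair and 1.88 in the other.

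Over the actinomycin D series, the members' levels are shares of the RNA that is left, and the 0 h library was made with another kit (TruSeq) than the treated ones (SMARTer with Nextera), so that kit and treatment cannot be told apart between 0 h and the rest. C1qb stood at 17.7 CPM at 0 h, then at 31.1, 31.1, 56.4 and 88.2 CPM after 1.5, 3, 6 and 12 h of treatment. C1qa went from 10.1 CPM at 0 h through 14.5, 14.6 and 35 to 41.8, and C1qc from 8.27 through 11.6, 18.3 and 20.6 to 48.7. All 3 C1q chains were thus higher at 12 h than at 1.5 h. Lyz2 stood at 172 CPM at 0 h, then at 259, 236, 380 and 488.

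The other members were less regular. Csf1r went from 23.1 CPM at 0 h through 25.2, 28.5 and 41.7 to 14.9 at 12 h, where 26 reads were left. Flt3 had 9.14 CPM at 0 h, then 12.7, 24.4, 5.05 and 10.9, and Itgax 2.23, then 3.69, 7.24, 1.68 and 4.58. Both peaked at 3 h and were lowest at 6 h among treated libraries, but on few reads. Flt3 had 57 reads at 6 h and 19 at 12 h, and Itgax 19 and 8. The interval of Itgax at 12 h (1.98 to 9.02 CPM) overlapped those at 3 h (5.90 to 8.80) and 6 h (1.01 to 2.63). Tyrobp had 38 reads at 1.5 h, 0 at 3 h and 6 h, and 17 at 12 h. By counting error alone, the counts of 0 allow up to 0.215 CPM at 3 h and 0.266 CPM at 6 h, below the 9.73 CPM at 12 h. Xcr1 had 26 and 13 reads at 1.5 h and 3 h and 0 at 6 h and 12 h, and Clec9a 3, 24, 0 and 0 reads. A count of 0 at 12 h allows up to 1.72 CPM, which is close to the 1.74 CPM of Xcr1 at 0 h, so a loss of Xcr1 at 12 h was not detectable at this depth. At 6 h the limit of 0.266 CPM, again by counting error alone, is lower than its level at 0 h. Over the entries shared by all files, 5.17%, 17.8%, 31.5% and 26.8% had no read in the 1.5, 3, 6 and 12 h libraries.

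**Figure D5:**
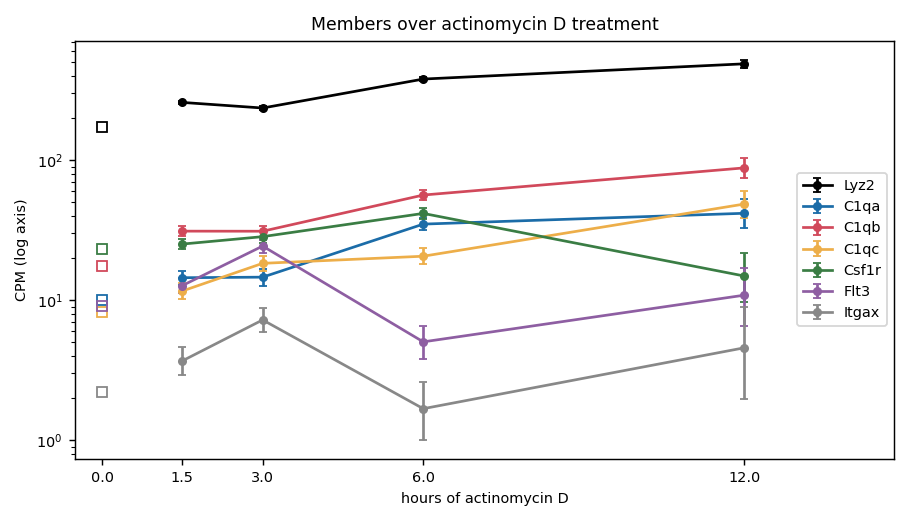
CPM (log axis) of 7 members against hours of actinomycin D, with 95% counting intervals for the 4 treated libraries and open squares for the 0 h library, made with another kit. The C1q chains reach 41.8 to 88.2 CPM at 12 h, while Csf1r is highest at 6 h, at 41.7 CPM.

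A slope over hours was tested on the 4 treated libraries by edgeR's quasi-likelihood test, with 2 residual degrees of freedom. Of 9 members that passed the expression filter (Clec9a did not), 0 were called, as were 0% of 20558 entries called higher and 0% called lower. An unadjusted p under 0.05 was found for 1884 of the 20558 entries and for 4 members. These were C1qc at 0.19 ± 0.0576 per hour on the log2 scale (adjusted p = 0.400), C1qa at 0.17 ± 0.0631 (adjusted p = 0.468), C1qb at 0.16 ± 0.0459 (adjusted p = 0.393) and Lyz2 at 0.11 ± 0.0389 (adjusted p = 0.461). Without the 6 h library the 3 C1q chains were called (smallest adjusted p by edgeR 0.00285). In that fit 706 of 20360 entries were called higher and 1154 lower. DESeq2 kept an adjusted p for 4958 entries, 2 of them members. It called both members (C1qb and Lyz2), with 250 of all entries called higher and 143 lower. From 1.5 h to 12 h the log2 change, with 0.5 reads added to the counts, was 1.53 for C1qa, 1.5 for C1qb, 2.06 for C1qc and 0.92 for Lyz2, beside a median of -0.43 over 23850 entries. For Csf1r it was -0.76.

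The ratio of Lyz2 to C1q reads differed through this series as well, from 4.77 at 0 h (4.59 to 4.95) to 4.51, 3.68, 3.39 and 2.73 (2.40 to 3.12) at 12 h. In contrast, the ratio of Lyz2 to Lyz1 reads was 1.20 at 0 h (1.17 to 1.23) and 2.77 at 12 h (2.43 to 3.16). Among the treated libraries, Lyz2 thus stood lower against C1q and higher against Lyz1 at 12 h than at 1.5 h. At 1.5 h the ratio to Lyz1 was 1.56 (1.49 to 1.63). In the untreated WT mTEChi libraries the ratio to C1q ranged from 4.77 (0 h) to 10.9 (WT). The ratio to Lyz1 ranged there from 0.887 (WT) to 1.31 (mTEChi of Exp2). Thymocyte genes summed to 52.2, 48.9, 154 and 227 CPM at 1.5, 3, 6 and 12 h, and macrophage genes to 228, 215, 200 and 244 CPM. Of the 20 macrophage genes 8 were at 0 at 6 h and 7 at 12 h, beside 31.5% and 26.8% of the entries shared by all files. Of the 14 thymocyte genes 5 and 3 were at 0. Cd163 and Mertk, picked out after their values were seen, were at 0 at both times, while Adgre1 stood at 29.7 and 61.8 CPM. Mertk had 1.33 CPM at 1.5 h, under the 1.72 CPM of 3 reads at 12 h, so its loss there was not detectable. The part of thymocytes or macrophages in the members' levels was not tested.

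Across all 9 libraries, the profile of C1q (the mean log2 CPM of its 3 chains) was most like those of BC048679 (Pearson r = 0.992), S100a9 (0.983), Iglon5 (0.983), Ccl1 (0.982), Try5 (0.982), Acsbg1 (0.981), Tnni1 (0.980) and Mt3 (0.978), among 15582 symbols with a mean of at least 1 CPM. S100a9 is known as a protein of neutrophils, Try5 as a pancreatic trypsin, Tnni1 as the troponin of slow muscle and Mt3 as a metallothionein of the brain. Tnni1 had 18.3 CPM in WT, 1.36 in the Aire-KO-labelled library, 21.5 in mTEChi (Exp2) and 1.62 in mTEClo. S100a9 had 78.4, 2.80, 73.5 and 9.53 CPM in the same libraries. Other members ranked far lower, Csf1r at 0.791 (rank 1108), Flt3 at 0.775 (rank 1240), Itgax at 0.716 (rank 1708) and Lyz2 at 0.542 (rank 3493), and Xcr1 and Tyrobp were at -0.29 and -0.0066. The 9 points share libraries, kit and depth, and the correlation is given as a description. Over the 5 untreated libraries alone, 0 of these 8 symbols were among the 8 most alike, and Xcr1 was the member closest to C1q, at 0.959 (rank 372 of 15331).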

How the data were processed

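RNA was sequenced from 9 libraries of sorted mTECs, 1 per group. Per the labels and the study's methods, the authors filtered reads with CASAVA, trimmed the paired-end reads of the pairs to 50 bases and pooled both mates as single reads, aligned them to mm9 with Bowtie 1.0.0, and counted reads within RefSeq exons with bedtools, without regard to strand. The deposited actinomycin D files hold raw counts. The deposited signal of both pairs is counts divided by DESeq size factors, and 100% of values were whole multiples (within 0.1) of a common step, which gave back the reads. Columns of the authors' own comparisons (fold changes and p-values) were not used. Both mates of a fragment were counted and amplified copies were kept, so intervals, which cover counting error only, are too narrow.

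The members and lists were chosen with earlier results of these data known. Symbols came from RefSeq (98.1% of entries of the pairs matched), and ties between entries (Clec9a) went to the entry also in the actinomycin D files. Named are all members, up to 4 genes per list with the highest mean CPM, preset genes (Ptprc, Spi1 and the main ligands and partners) and the 8 symbols most like C1q, and Cd163 and Mertk were added after their values were seen. Folds used the deposited scaling, with 0 replaced by 3 reads and at least 10 normalised counts over both libraries, and intervals were exact conditional binomial ones. Across libraries, edgeR 4.0.16 (quasi-likelihood, TMM, default filter, Benjamini-Hochberg) was used on recovered and raw reads, with SEs taken from the F statistic, and DESeq2 1.42.0 as an alternative. In simulated data with 200 changed entries at a log2 change of 4 across the range, edgeR recovered 100% for the Aire comparison over 23339 entries. It recovered 100% for mTEClo and 98% for the slope. The simulated spread was fixed beforehand, and in the Aire comparison the largest difference of a member was 3.36 (Itgax). These recoveries therefore do not show how often differences of the members' size would be called. Positions are those of the mm9 gene annotation.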

Additional observations from a re-analysis of the deposited data

How the results depend on the processing

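The counts of members at least 3-fold higher in WT (6) and in mTEChi (6) stayed between 5 and 9 under other scalings, limits, count minimums, entries and WT libraries, the 0 h library having been added after the data were seen, and those of the related lists stayed within 1.5 times. The count of members called between untreated WT mTEChi and Aire-KO was 3, and 5 by DESeq2, with a range of 1 to 5 on leaving out each WT library. For mTEClo it was 0, 5 by DESeq2, and 0 to 5 on leaving out each. For the slope it was 0, 2 by DESeq2, and 0 to 3. The number of all entries called also changed with these settings in each of these comparisons. Over the 5 untreated libraries 0 of the 8 symbols most like C1q were shared. Lyz2 reversed in the Aire comparison, to -0.085 by DESeq2, and -0.084 with median-ratio size factors, ran on leaving out each library from -0.54 (without WT) through -0.27 (without mTEChi of Exp2) to 0.41, and turned to -0.97 with the 0 h library in place of WT. Itgax, level between mTEChi and mTEClo, reversed to 0.057 with equal totals, 0.49 with the other WT library and 0.028 with 0 h, and ran from -0.15 (without WT) to 0.18 on leaving out each. Its slope reversed to 0.033 with 0 h and ran from -0.36 to 0.042 (without 3 h) on leaving out each library, and that of Csf1r from -0.11 to 0.15 (without 12 h). Tyrobp reversed to -0.30 with 0 h over mTEClo. The cause was not tested. No paired analysis was possible because the groups compared share fewer than 2 replicate numbers. Counts of 0 occurred for Clec9a, Xcr1 and Tyrobp in the treated libraries. Tyrobp had 0 reads at 3 h and 6 h but 17 at 12 h, the library with the fewest total reads (1746825). The part of depth in these counts was not tested.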
